A study of Mus musculus with 8 samples.

Results

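The genes described are Nfil3, a basic leucine zipper repressor, and 9 genes of the circadian clock: Dbp, Tef, Hlf, Per1, Per2, Cry1, Nr1d1, Nr1d2 and Clock. Nfil3 was picked because its expression was lower in macrophages in which the IL-6 receptor gene was targeted. Its own difference between genotypes is therefore given as a description with no test. The other 9 were picked for what they do, to ask whether the activators that share the binding site of NFIL3, and the clock loop around them, moved as well. All 10 genes were measured, each by 1 probe set annotated to that gene alone, out of 19938 genes in the series.

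The arrays profiled macrophages grown from mouse bone marrow for 10 days in M-CSF (10 ng/ml), starved of serum overnight and then given murine IL-6 for 4 h at 50 ng/ml. Control macrophages (Ctrl, 4 arrays) came from mice with the genotype IL6ralpha flox/flox, and receptor-deficient macrophages (IL6raKO, 4 arrays) from IL6ralpha flox/flox LysMCre tg/wt mice, in which Cre is driven from the lysozyme M locus of myeloid cells. Both groups thus carried the floxed allele and received IL-6, and IL6raKO alone carried Cre, so effects of receptor loss and of Cre itself cannot be told apart. No array came from cells without IL-6. The labels give a single time after IL-6 and no hour of day, so a level here is a single reading of genes whose level can cycle. They call the arrays biological replicates without saying whether each came from its own animal, so a p-value here reflects only how these 8 samples vary.

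NFIL3, also called E4BP4, binds a DNA element named the D-box and represses from it, while DBP, TEF and HLF, the proline and acidic amino acid-rich (PAR) bZIP factors, bind the same element and activate. In the core loop, CLOCK and its partner BMAL1 (gene Arntl) activate genes with E-boxes, among them those for the period and cryptochrome proteins, which return to inhibit CLOCK and BMAL1, and those for REV-ERBα (Nr1d1), REV-ERBβ (Nr1d2) and DBP. The REV-ERB receptors repress Arntl and also Nfil3 through ROR elements. In macrophages NFIL3 is known as a STAT3-dependent gene induced by IL-10 that represses Il12b, and REV-ERB is known to repress a set of macrophage enhancers.

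The sequences upstream of the genes are shown because the loop is defined by the elements it binds. RefSeq windows of GRCm38.p6 matched 9 of the 10 genes, all but Per2, with 13 windows in total, since some genes have several starts. The 250 bases before each start were searched on both strands for the D-box (TTATGTAA or TTACGTAA), the E-box (CACGTG), the nuclear receptor motif AGGTCA, the STAT site TTCNNNGAA and the CRE core TGACG. The windows of Nfil3 (chr13:52981040-52981289, minus strand), Per1 (chr11:69098699-69098948, plus strand), Cry1 (chr10:85185055-85185304, minus strand) and Tef (chr15:81802423-81802672, plus strand) are given 5′ to 3′ along the gene, in lower case, with every match to these motifs on either strand in capitals:
Nfil3: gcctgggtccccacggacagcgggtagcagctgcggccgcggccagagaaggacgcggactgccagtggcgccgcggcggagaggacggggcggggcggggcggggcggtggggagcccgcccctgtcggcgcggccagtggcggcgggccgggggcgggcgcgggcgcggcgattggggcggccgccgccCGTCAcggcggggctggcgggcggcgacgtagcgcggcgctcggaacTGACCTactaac
Per1: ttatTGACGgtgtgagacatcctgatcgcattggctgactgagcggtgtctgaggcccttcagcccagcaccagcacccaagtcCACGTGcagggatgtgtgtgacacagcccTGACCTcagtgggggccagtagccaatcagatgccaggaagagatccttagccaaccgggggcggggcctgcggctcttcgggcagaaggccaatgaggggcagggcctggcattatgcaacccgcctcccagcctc
Cry1: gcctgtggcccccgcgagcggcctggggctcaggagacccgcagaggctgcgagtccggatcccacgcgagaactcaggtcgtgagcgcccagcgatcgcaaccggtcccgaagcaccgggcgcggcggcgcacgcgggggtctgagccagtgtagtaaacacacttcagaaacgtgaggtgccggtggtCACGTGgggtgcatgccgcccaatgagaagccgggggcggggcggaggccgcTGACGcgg
Tef: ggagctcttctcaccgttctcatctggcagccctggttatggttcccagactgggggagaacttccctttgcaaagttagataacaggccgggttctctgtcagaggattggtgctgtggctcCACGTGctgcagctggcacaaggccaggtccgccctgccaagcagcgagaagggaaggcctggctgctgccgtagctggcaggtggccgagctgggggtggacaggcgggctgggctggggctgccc

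The E-box letters were found in 4 of the 13 windows, those of Per1, Cry1 and both starts of Tef, against 6.02% of all 32851 windows in the RefSeq table. They begin 166 bases before the start in the Per1 window shown, 60 in Cry1 and 127 in the Tef window shown. The Nfil3 window held the receptor motif, read there as TGACCT on the shown strand and 12 bases before the start, and a CRE core, read as CGTCA and 59 bases before the start. Receptor motifs were in 4 of the 13 windows (14% of all windows) and CRE cores in 5 (17.8% of all). The STAT site was in 2, TTCCGCGAA 99 bases before the Dbp start and TTCCACGAA in the second Per1 window, against 7.02% of all windows. Neither D-box sequence was in any of the 13 windows (0.819% and 0.113% of all windows hold them). Motif matches describe letters in these windows and were not tied to any binding measurement.

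Il6ra, the targeted gene, checked the labels first. Its log2 expression was 8.43, 8.4, 8.4 and 8.45 on the Ctrl arrays and 7.75, 8.1, 7.91 and 7.92 on the IL6raKO arrays, without overlap, a difference of -0.50 (limma adjusted p = 0.0607 over all genes). Lyz2, the lysozyme gene at the Cre locus, differed by -0.11 (95% confidence interval -0.27 to 0.05), with overlapping groups. Macrophage markers were bright in both groups: the mean of 8 of them, such as Adgre1, Cd68 and Csf1r, was between 11.73 and 11.85 in Ctrl and between 11.72 and 11.76 in IL6raKO. The array medians lay between 6.31 and 6.35, and Ctrl replicate 4 stood at 21.5 on the first principal component, with the other arrays between -6.6 and 4.8. Limma called 6 genes at an adjusted p under 0.05, all 6 lower in IL6raKO, which is 0.0301% of the genes tested.

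Nfil3 was expressed at 8.48, 8.53, 8.52 and 8.59 in Ctrl and at 7.83, 8.11, 8.18 and 8.11 in IL6raKO, in log2 units. The Ctrl arrays lay close together, every IL6raKO array lay below all of them, and IL6raKO replicate 1 was the lowest. The means were 8.53 ± 0.04 (SD, n = 4) and 8.06 ± 0.15 (SD, n = 4), a difference of -0.47, so that Nfil3 stood at 72.1% of its control level. Among all genes, 0.11% differed by at least this much in either direction, and 2.37% had all IL6raKO arrays below all Ctrl arrays; these shares describe the value the gene was picked for. With any 1 array left out the difference lay between -0.51 and -0.40, the smallest being that without IL6raKO replicate 1. In RNA from whole cultures, fewer cells of a type and less RNA per cell cannot be told apart.

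**Figure D1:**
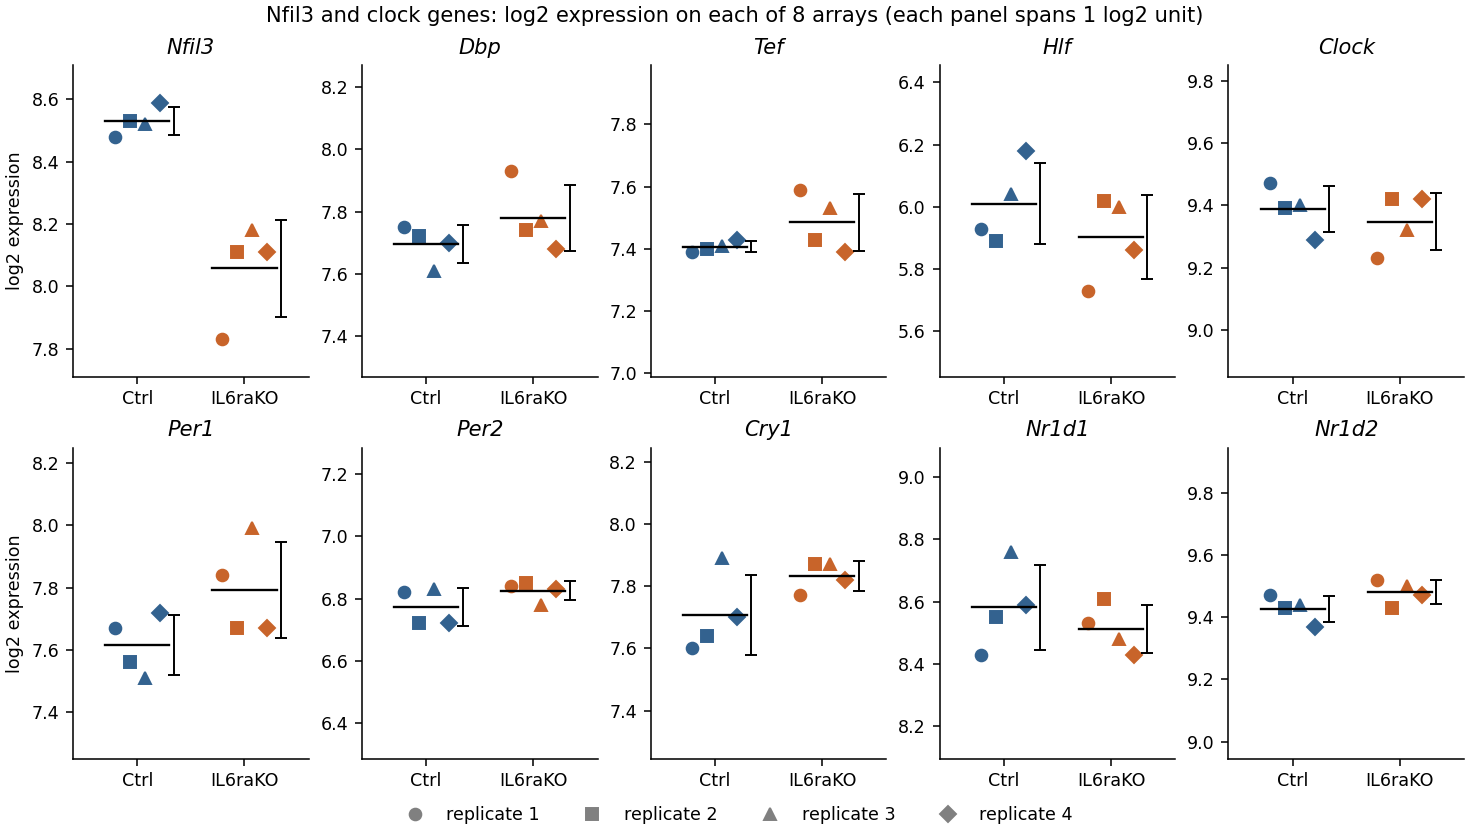
Log2 expression (y axis, each panel spanning 1 log2 unit) of Nfil3 and 9 clock genes on the 4 Ctrl (blue) and 4 IL6raKO (orange) arrays; symbols mark replicate numbers, horizontal lines the group mean and bars ± 1 SD. The Nfil3 groups do not overlap (8.48 to 8.59 against 7.83 to 8.18), whereas in each of the other 9 panels the groups share part of their range.

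None of the 9 clock genes other than Nfil3 passed the test. Limma gave 0 of 9 at an adjusted p under 0.05 over all genes (background 0.0301%), with adjusted p between 0.698 for Per1 and 0.911 for Clock, and 0 of 9 at an unadjusted p under 0.05 (background 7.28%). Of the 9, 6 were higher in IL6raKO and 3 lower, with differences from -0.11 to 0.18 and a median of 0.05, against a median of -0.01 over all genes. For all 9 the 95% confidence interval of the difference included 0. The intervals ran from -0.30, the lower bound for Hlf, to 0.36, the upper bound for Per1. For none of the 9 did the interval reach as far as -0.47, the difference of Nfil3, or as far in the other direction. That value is the one Nfil3 was picked for, and it has no interval. Whether the 9 moved less than Nfil3 was therefore not tested.

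Among the PAR bZIP activators, Dbp and Tef were slightly higher and Hlf slightly lower in IL6raKO, all within the spread between replicates. Dbp, which carries clock time to output genes in many tissues, was at 7.75, 7.72, 7.61 and 7.7 in Ctrl and at 7.93, 7.74, 7.77 and 7.68 in IL6raKO. The groups overlapped and IL6raKO replicate 1 was the highest. The difference was 0.08 (SE 0.07, 95% confidence interval -0.07 to 0.23, limma adjusted p = 0.81). Tef, a thyrotroph embryonic factor with the same binding site, was nearly constant in Ctrl, at 7.39, 7.4, 7.41 and 7.43. In IL6raKO it was at 7.59, 7.43, 7.53 and 7.39, so that replicates 1 and 3 lay above the controls, replicate 2 lay level with the highest of them and replicate 4 with the lowest. Its difference was 0.08 (SE 0.06, interval -0.06 to 0.21, limma adjusted p = 0.809).

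Hlf, the hepatic leukemia factor, which is also a marker of blood stem cells, had a dim signal, with a mean of 5.96 over the 8 arrays where the median gene was at 6.43. It was at 5.93, 5.89, 6.04 and 6.18 in Ctrl and at 5.73, 6.02, 6 and 5.86 in IL6raKO. The highest value was that of Ctrl replicate 4 and the lowest that of IL6raKO replicate 1. The difference was -0.11 (SE 0.09, interval -0.30 to 0.08, limma adjusted p = 0.798). Dim signals are compressed by RMA, and the values carry no detection call. The 5 stem and progenitor markers, Hlf and Kit among them, had a mean level of 6.25 to 6.41 in Ctrl and 6.31 to 6.43 in IL6raKO.

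Of the activator limb, Clock, the bHLH-PAS partner of BMAL1, was at 9.47, 9.39, 9.4 and 9.29 in Ctrl and at 9.23, 9.42, 9.32 and 9.42 in IL6raKO. The ranges overlapped widely, and the difference was -0.04 (SE 0.07, interval -0.19 to 0.10, limma adjusted p = 0.911). The other measured activators gave the same picture: Arntl differed by 0.00 (interval -0.21 to 0.20) and its paralogue Arntl2 by 0.03 (interval -0.23 to 0.28). Arntl varied more among the Ctrl arrays (6.66 to 7.09) than among the IL6raKO arrays (6.83 to 6.92).

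Per1 had the largest difference of the 9. This period gene, an inhibitor of CLOCK and BMAL1 that also responds acutely to cAMP and glucocorticoids, was at 7.67, 7.56, 7.51 and 7.72 in Ctrl and at 7.84, 7.67, 7.99 and 7.67 in IL6raKO. IL6raKO replicates 1 and 3 lay above every control, and replicates 2 and 4 lay within the control range. The difference was 0.18 (SE 0.08, interval -0.01 to 0.36, limma unadjusted p = 0.0588, adjusted p = 0.698), with all 4 IL6raKO arrays above the control mean. Without IL6raKO replicate 3 it was 0.11. A difference of at least this size was found in 9.12% of all genes.

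Per2 and Cry1 were also higher on average, by less. Per2, the second period gene, was at 6.82, 6.72, 6.83 and 6.72 in Ctrl and at 6.84, 6.85, 6.78 and 6.83 in IL6raKO, a difference of 0.05 (SE 0.06, interval -0.07 to 0.18). The groups overlapped, and 3.91% of genes varied less between replicates than Per2. Cry1, a cryptochrome that inhibits CLOCK and BMAL1, was at 7.6, 7.64, 7.89 and 7.7 in Ctrl and at 7.77, 7.87, 7.87 and 7.82 in IL6raKO. The highest array was Ctrl replicate 3, and the other controls lay below every IL6raKO array. The difference was 0.13 (SE 0.07, interval -0.03 to 0.29, limma adjusted p = 0.725), and without Ctrl replicate 3 it was 0.19 (limma unadjusted p = 0.0162, adjusted p = 0.679).

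The REV-ERB genes, the repressors of Arntl and of Nfil3 itself, differed in sign from each other and neither passed. Nr1d1 was at 8.43, 8.55, 8.76 and 8.59 in Ctrl and at 8.53, 8.61, 8.48 and 8.43 in IL6raKO. Both groups had an array at 8.43, and Ctrl replicate 3 was the highest. The difference was -0.07 (SE 0.08, interval -0.24 to 0.10, limma adjusted p = 0.866). Nr1d2 was the steadiest of the 10, at 9.47, 9.43, 9.44 and 9.37 in Ctrl and at 9.52, 9.43, 9.5 and 9.47 in IL6raKO, and 2.46% of genes varied less. Its difference was 0.05 (SE 0.06, interval -0.07 to 0.18, limma adjusted p = 0.859). The receptors that activate from the same elements were as close, with Rora at 0.03 (interval -0.09 to 0.16) and the dim Rorb at 0.05 (interval -0.13 to 0.23).

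**Figure D2:**
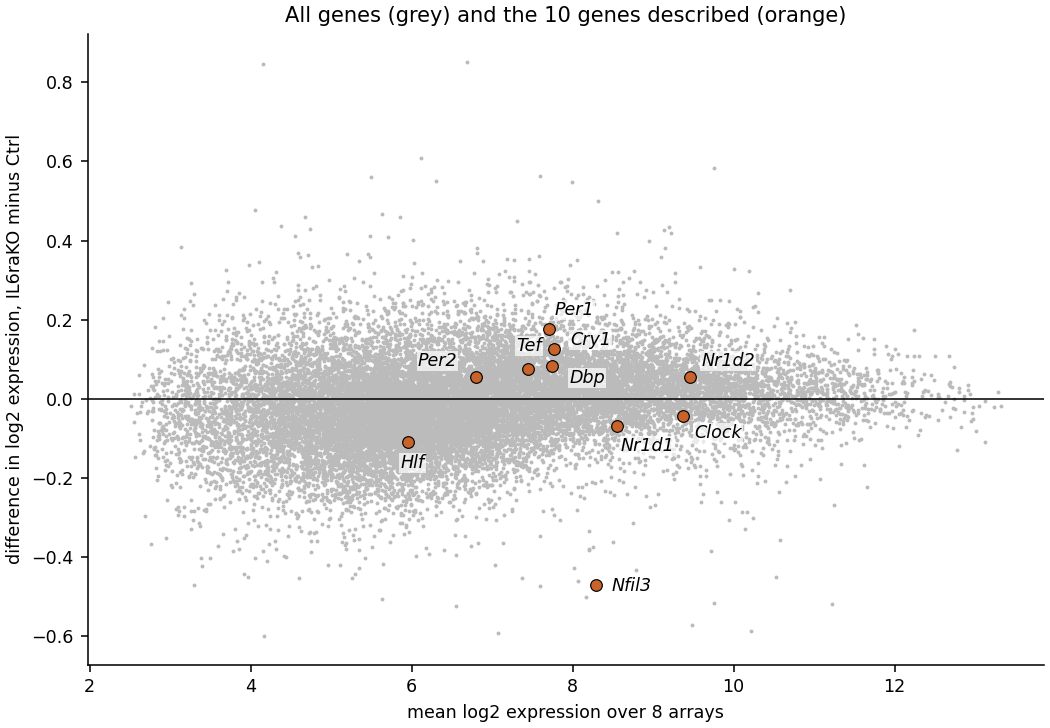
Difference in log2 expression, IL6raKO minus Ctrl (y axis), against mean log2 expression over the 8 arrays (x axis) for all 19938 genes (grey), with the 10 genes described in orange. Nfil3 lies at -0.47, at the lower edge of the cloud, and the other 9 lie inside it between -0.11 and 0.18.

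The wider clock was measured through 32 of 37 listed genes, 31 without Nfil3. Of these 31, 21 were higher in IL6raKO and 10 lower (67.7% higher, against 45.8% of all genes), with a median difference of 0.05. The share of all genes was not matched for expression level. The median difference was -0.01 over all genes and 0.01 over those above the median level, where most of the 31 lay. Limma called 0 of 31 over all genes, and 3 (9.68%) had an unadjusted p under 0.05, against 7.28% of all genes in either direction. All 3 were higher, as were 2.74% of all genes at that level. When arrays were centred on their 75th percentile, 1 of the 31 had an unadjusted p under 0.05, and leaving out single arrays gave between 1 (without Ctrl replicate 2 or IL6raKO replicate 3) and 4.

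The 3, among them Ciart, whose probe sets disagree, all belong to the limb of period, cryptochrome and other inhibitors of CLOCK and BMAL1. All 8 measured genes of this limb, which includes Per1, Per2 and Cry1, were higher in IL6raKO, with differences from 0.03 to 0.29 and a median of 0.15. Centred on the 75th percentile, 7 of the 8 were higher; Bhlhe40, singled out here after its values were seen, was at 0.03 before that centring. Without IL6raKO replicate 3, and without replicate 4, it was 7 as well. The limb was above its genes' own means by a median of 0.11 on IL6raKO replicate 3, 0.07 on replicates 1 and 4 and 0.04 on replicate 2, and the Ctrl medians ran from -0.11 on replicate 2 to 0.02 on replicate 3. No set test was made, and these genes were looked at with earlier results of the same arrays known.

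Bhlhe41 (DEC2), a bHLH repressor that competes at E-boxes, was at 8.92, 9.06, 9.17 and 8.72 in Ctrl and at 9.4, 9.15, 9.22 and 9.24 in IL6raKO. The lowest IL6raKO array lay just below the highest control. The difference was 0.29 (SE 0.10, interval 0.08 to 0.50, limma unadjusted p = 0.0117, adjusted p = 0.616). Cry2, the second cryptochrome, was at 6.23, 6.09, 6.34 and 6.37 in Ctrl and at 6.45, 6.38, 6.44 and 6.42 in IL6raKO, all 4 above the controls. Its difference was 0.17 (SE 0.07, interval 0.01 to 0.32, limma unadjusted p = 0.0384, adjusted p = 0.67). Over all genes, 2.07% had every IL6raKO array above every Ctrl array. Ciart (CHRONO), a further inhibitor of CLOCK and BMAL1, differed by 0.27 (SE 0.11, interval 0.03 to 0.51, limma adjusted p = 0.669) on the brighter of its probe sets. The annotation gives both probe sets to Ciart, but those numbered next to the brighter one belong to genes such as Pa2g4 and Erbb3 that do not lie near Ciart, whereas those next to the other, such as Mrps21, are its neighbours in the RefSeq gene order. Whether 0.27 is a value of Ciart is therefore unsure. The other probe set differed by 0.07 (interval -0.23 to 0.37, limma adjusted p = 0.94). With it, a choice made after seeing the data, 2 of the 31 clock genes had an unadjusted p under 0.05 in place of 3, all 8 genes of the limb were still higher, and the median of the limb was 0.10 in place of 0.15.

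The regulators of clock proteins did not pass. Of 13 measured kinases, ubiquitin ligases and other regulators, 7 were higher (53.8%, against 45.8% of all genes) and 6 lower. Their differences ran from -0.10 to 0.10. In limma 0 had an unadjusted p under 0.05, against 7.28% of all genes, which for so few genes is near that share. The lowest p-values were those of Fbxw11, a ubiquitin ligase subunit for period proteins (0.10, interval -0.05 to 0.25), the kinase Gsk3b (0.10, interval -0.06 to 0.26) and Fbxl21, a ligase subunit for cryptochromes (-0.10, interval -0.31 to 0.10).

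**Figure D3:**
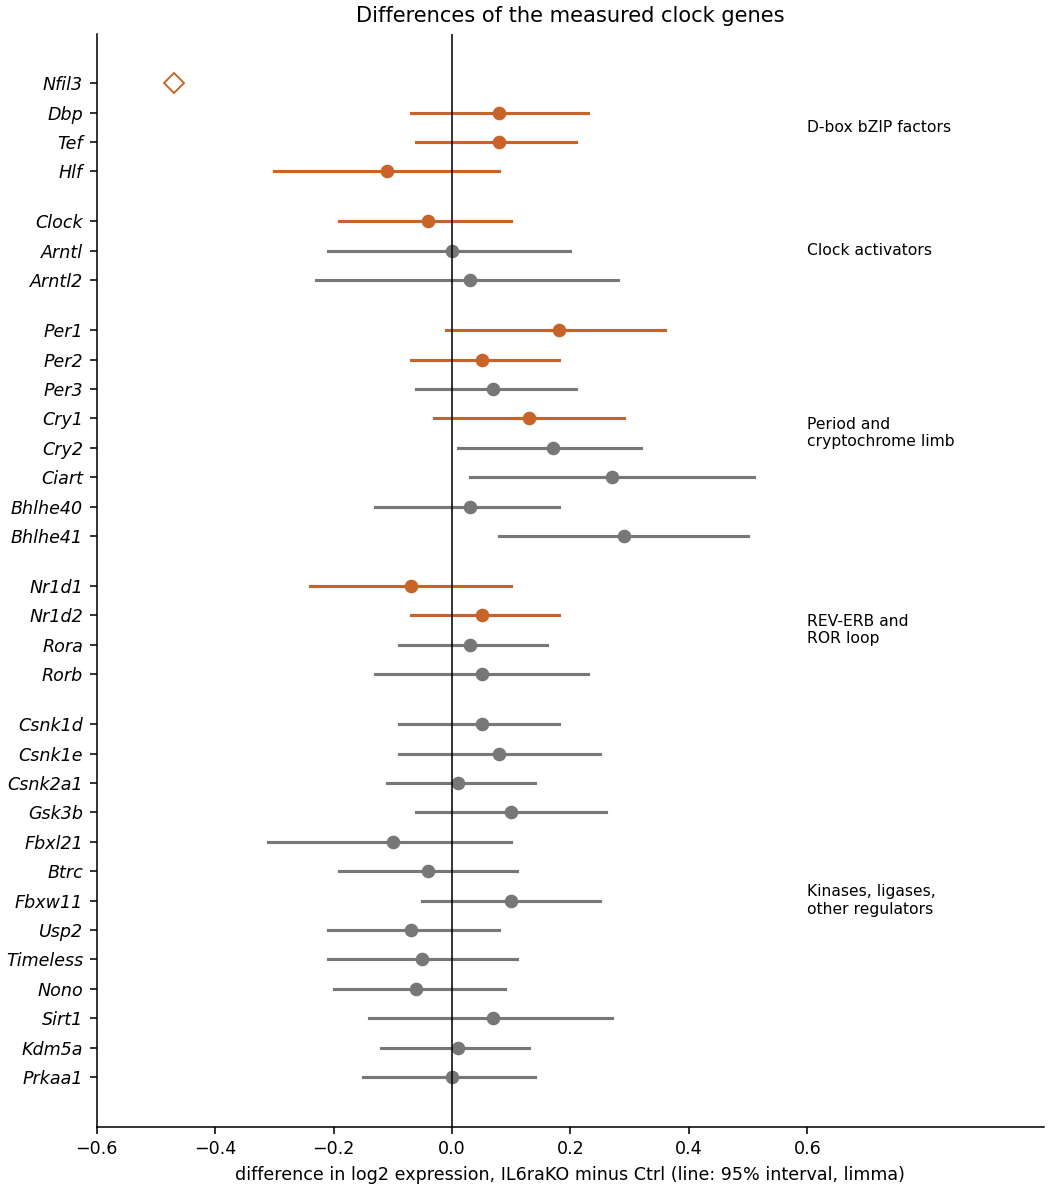
Difference in log2 expression, IL6raKO minus Ctrl (x axis), for the 32 measured clock genes (y axis), in blocks by role; orange marks the 10 genes described, grey the others, and lines the 95% confidence interval from limma. Nfil3 (open diamond, no interval because it was picked for this value) lies at -0.47, and every other point lies between -0.11 and 0.29, with all 8 of the period and cryptochrome limb to the right of 0 (Ciart by its brighter probe set).

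No output gene of the clock passed. Of 11 measured, 5 were higher and 6 lower (median -0.01), limma called 0 over all genes, and 3 (27.3%) had an unadjusted p under 0.05, against 7.28% of all genes. Abcb1a, a drug efflux pump known to be driven by PAR bZIP factors from a D-box, was at 7.5, 7.19, 7.18 and 7.39 in Ctrl and 7.46, 7.6, 7.76 and 7.62 in IL6raKO. Only IL6raKO replicate 1 lay within the control range. The difference was 0.30 (SE 0.09, interval 0.10 to 0.49, unadjusted p = 0.00657 and adjusted p = 0.569 in limma). Klf10, a TGF-β-inducible zinc finger repressor, differed by -0.15 (interval -0.28 to -0.01) and the nuclear receptor Pparg by 0.13 (interval 0.01 to 0.26). Neither passed over all genes (limma adjusted p = 0.669 and 0.67). Klf10 was the only 1 of the 11 with every IL6raKO array below every Ctrl array (2.37% of all genes), and Pparg and Alas1, the enzyme that starts haem synthesis, were the 2 with every one above (2.07% of all genes). Alas1, named here for that reason after its values were seen, differed by 0.08 (interval -0.04 to 0.21).

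Genes known to answer to NFIL3 or REV-ERB did not pass either. Of 10 genes linked to NFIL3 in immune cells, all 10 were lower in IL6raKO (54.2% of all genes were lower), by between 0.00 (Il10) and 0.16. In limma 0 had an unadjusted p under 0.05, a level at which 4.54% of all genes were lower. All but Id2 and Il13 were dimmer than the median gene (6.43). Il12b, the IL-12 p40 subunit that NFIL3 represses in macrophages, was dim, at 5.48 ± 0.23 in Ctrl and 5.32 ± 0.21 in IL6raKO (SD, n = 4 each), a difference of -0.16 (interval -0.43 to 0.12). The cytokine Il4 differed by -0.16 (interval -0.38 to 0.06) and the death ligand Fasl by -0.12 (interval -0.30 to 0.06). Of 5 genes that REV-ERB represses in macrophages, 4 were lower and 1 higher (54.2% of all genes were lower). In limma 0 of these 5 had an unadjusted p under 0.05, against 7.28% of all genes, which for so few genes is near that share. Il6 itself was very dim (3.42 in Ctrl, 3.26 in IL6raKO), the matrix protease Mmp9 differed by -0.15 (interval -0.37 to 0.07) and the chemokine Ccl2 by -0.08 (interval -0.27 to 0.12).

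Per1 also belongs to the genes that glucocorticoids and cAMP switch on within hours, and the groups of those genes were split. Of 7 glucocorticoid-induced genes, Per1 itself among them, 5 were higher in IL6raKO (45.8% of all genes were). Limma called 0 over all genes, and 2 had an unadjusted p under 0.05 (7.28% of all genes), both higher (2.74% of all genes). They were Dusp1, a MAP kinase phosphatase (0.25, interval 0.10 to 0.39), and the kinase Sgk1 (0.17, interval 0.01 to 0.33). The rest of the list, given for completeness, was Klf9 at 0.08, Tsc22d3 at 0.01, Fkbp5 at -0.01 and Zbtb16 at 0.00. Of 9 cAMP and CREB immediate early genes, 3 were higher and 6 lower. Fos, at 0.30 (interval 0.14 to 0.45), had an unadjusted p of 0.00154 in limma and an adjusted p of 0.477, while its relative Fosb differed by -0.10 (interval -0.26 to 0.06).

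The arrays did not order the 10 genes in a shared way. On IL6raKO replicate 1, Nfil3 was 0.46 below its own mean over the 8 arrays, its lowest value, and there Dbp (0.19) and Tef (0.14) were at their highest while Hlf (-0.23) and Clock (-0.14) were at their lowest. On IL6raKO replicate 3, where Nfil3 was highest among the IL6raKO arrays (-0.11), Per1 reached its highest value (0.28). Of the 9 clock genes, 6 were above their own means on IL6raKO replicates 1, 2 and 3 and 4 on replicate 4, against 1 to 5 on the Ctrl arrays.

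Genes with a pattern like that of Nfil3 were looked for among all genes. Likeness was measured as the root mean square difference between log2 deviations from each gene's own mean over the 8 arrays, so that a smaller value means a closer pattern, and the median over all genes was 0.271. The nearest 5 were Ifitm1, an interferon-induced membrane protein (0.046), Tgfbi, a matrix protein (0.071), Il6ra (0.076), Stat3, the transcription factor of the IL-6 receptor (0.081), and Pgap6 (0.086). All 5 were without overlap between genotypes and lower in IL6raKO, a feature the choice of Nfil3 favours. Ifitm1, for instance, was at 8.15, 8.34, 8.32 and 8.37 in Ctrl and 7.61, 7.85, 7.96 and 7.91 in IL6raKO. The list depended on single arrays and on the measure: 2 of the 5 remained without IL6raKO replicate 1, 3 without Ctrl replicate 2, and 1 when deviations were divided by each gene's SD. Among the 31 other clock genes, Hlf was the nearest (0.196, rank 874 of all genes) and Bhlhe41 the farthest (0.433). These 2 also had the lowest (-0.11) and highest (0.29) differences of the 31. The measure keeps the size of a change, so genes with differences this far from that of Nfil3 could not be among the nearest.

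**Figure D4:**
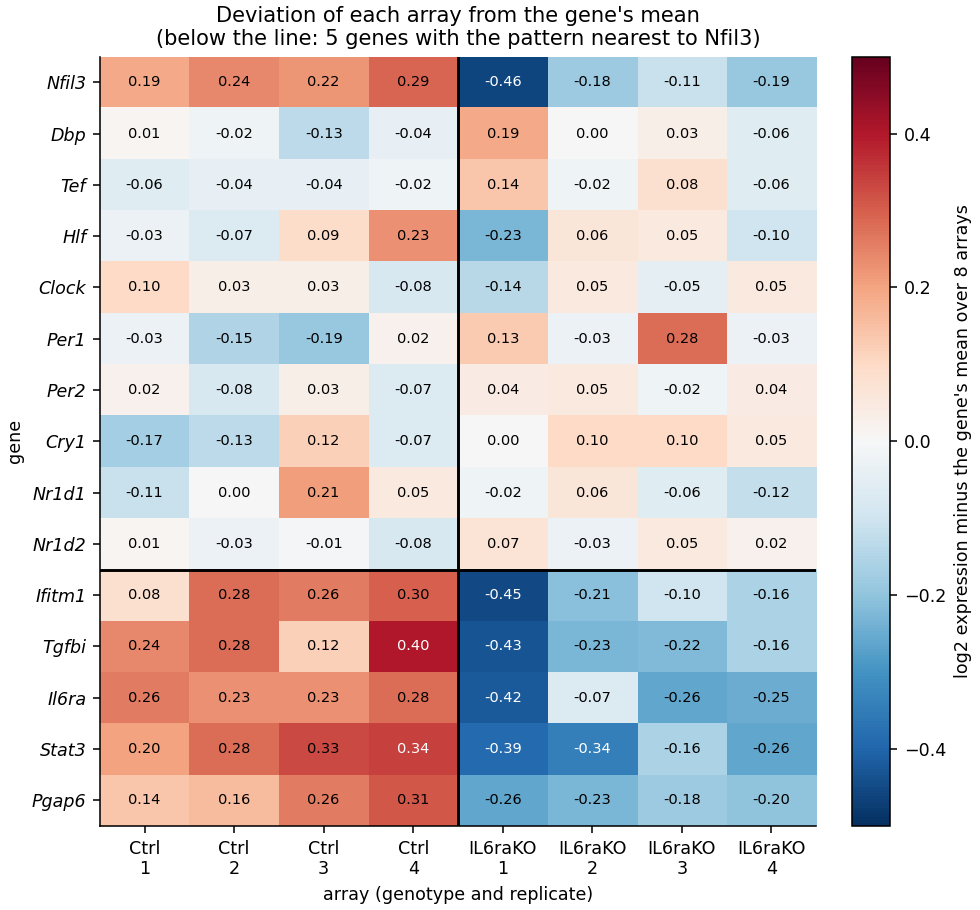
Log2 expression on each array minus the gene's mean over the 8 arrays (colour and printed value), for the 10 genes described (above the line) and the 5 genes nearest to Nfil3 in pattern (below it), with Ctrl arrays left and IL6raKO arrays right of the vertical line. Nfil3 runs from 0.19 to 0.29 in Ctrl and from -0.46 to -0.11 in IL6raKO like the 5 genes below, while the values of each of the other 9 clock genes overlap between the genotypes.

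Markers of other blood cells were also measured, since Nfil3 is expressed in several of them. All 8 mast cell and basophil markers were lower in IL6raKO (median -0.15), as were 54.2% of all genes. In limma 0 of the 8 had an unadjusted p under 0.05. On replicates 1 to 4 their mean level was 6.13, 6.38, 6.44 and 6.81 in Ctrl and 5.91, 6.3, 6.27 and 6.54 in IL6raKO. It was lowest on IL6raKO replicate 1, where Nfil3 was at 7.83, and next lowest on Ctrl replicate 1, where Nfil3 was at 8.48. The 5 measured B cell markers were dim and lower, with a mean level of 5.67 to 5.73 in Ctrl and 5.52 to 5.58 in IL6raKO. The 8 markers of T, NK and innate lymphoid cells had a mean level of 5.92 to 6 and 5.92 to 5.97, and the 8 of neutrophils 5.91 to 6.19 and 5.82 to 6.05. None of these markers was called in limma. An unadjusted p under 0.05 in limma was found for the B cell gene Ighm (-0.17) and the neutrophil gene Mpo (-0.20), both lower. The T cell gene Cd3g, which was higher (0.22), had it too, as did 7.28% of all genes. In the remaining marker lists, so did the dendritic cell gene Zbtb46 (-0.22) and the macrophage gene Fcgr1 (-0.24), both lower. Neither was called (limma adjusted p = 0.616 and 0.681). The 6 dendritic cell markers had a mean level of 5.97 to 6.16 in Ctrl and 5.97 to 6.13 in IL6raKO. The part of these cells in the difference of Nfil3 was not tested.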

How the data were processed

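Biotin-labelled cDNA made from the RNA of 8 cultures was measured on Affymetrix arrays, per the labels' protocols. Log2 expression as deposited by the authors was used, a table of 35556 probe sets. The submitters' processing notes name RMA, which corrects background, normalizes and summarises probes, and R 2.13.1, with no order of steps. Filters were not given in the sources used here, nor was a build. The range, 1.96 to 14.2, fits a log2 scale.

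Of the probe sets, 21789 (61.3%) had a single symbol in GEO's platform annotation; with several per gene, the brightest on average was used, which gave 19938 genes. IL6raKO was compared with Ctrl in limma 3.58.1 (R 4.3.3, lmFit and eBayes, default settings) on the 8 arrays together, without covariates; two-sided p-values were Benjamini-Hochberg adjusted over all genes and called under 0.05. The procedure was tested on simulated data, with differences larger than those of Nfil3 and the clock genes. Recovery of smaller differences was not tested. Intervals are 95% and unadjusted. The number of arrays, which have no read depth, limits the precision.

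The members and lists were chosen with earlier results of these data known. Named are the 10 members, Il6ra, Lyz2, up to 3 genes of lowest p per list and the 5 genes nearest to Nfil3, except gene models with no name and small RNA genes; exceptions and markers are stated or serve as examples. Alternatives were other variance models, filters, normalizations, array weights, probe set rules, a replicate block and each array left out.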

Additional observations from a re-analysis of the deposited data

Results flagged for a closer look

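Arntl2, the dim paralogue of Arntl, was at 5.08 on Ctrl replicate 3 and between 5.61 and 5.65 on the other Ctrl arrays. It was the only case, among 102 sets of 4 arrays (1 per gene and genotype), of an array far from the other 3 by Dixon's criterion, where chance gives about 5.1.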

How the results depend on the processing

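In each of the 17 alternatives (16 for the dim Hlf, which the filter at the median removed), the differences of the 10 genes kept their direction. None of the 9 clock genes, and none of the 31 wider clock genes without Nfil3, was called in any of them, nor any of the 9 at an adjusted p under 0.1 in limma. The difference of Per1 ranged from 0.11 to 0.22 with a lowest limma adjusted p of 0.574, and reached an unadjusted p under 0.05 in 6 alternatives, among them the trended and robust variance model (limma unadjusted p = 0.0424, adjusted p = 0.665). Wider clock genes at an unadjusted p under 0.05 numbered 3 in the reported fit, 1 with centring on the 75th percentile and 1 to 4 with an array left out; the cause was not tested. Calls over all genes, 6 in the reported fit, were 22 with trended and robust variance, 11 with either filter on dim genes, 0 over all probe sets and 0 to 1 with an array left out. Over all genes, the deviations of same-numbered replicates from their group means were hardly correlated (-0.01 to 0.04). Single genes could still follow the replicate number. The basophil marker Mcpt8 rose with it in both groups, at 6.87, 7.37, 7.81 and 8.33 in Ctrl and 6.19, 7.2, 7.52 and 7.67 in IL6raKO. The replicate block gave 0 calls over all genes, 0 among the 9 clock genes and 3 wider clock genes at an unadjusted p under 0.05. The scalings moved the median difference of all genes from -0.01 to between -0.04 and 0.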
